A study of Mus musculus with 9 samples.

Results

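The genes described here, except Mrps36, encode protein subunits of the mitochondrial ribosome. They were taken as every row of the deposited table whose NCBI gene ID maps to a mouse symbol beginning with Mrpl or Mrps followed by a number, which gave 78 genes of the 17943 in the table. RNA from whole skin of 9 mice was sequenced on day 10 after the last injection. By the study's methods, the 4 Supt6-KO mice, which the labels call a knockdown, carried K14-CreERT and Supt6 fl/fl and received tamoxifen, whereas the 5 controls, labelled WT, were Supt6 fl/fl mice without the Cre transgene given corn oil, so that Cre and tamoxifen cannot be told apart from loss of Supt6 in this design. Both groups carried the floxed alleles, and ages were not given in the labels. K14-CreERT is a tamoxifen-dependent Cre driven by the keratin 14 promoter of basal keratinocytes, so it is not aimed at the dermal, immune, muscle and vascular cells that the same samples hold. The labels call the tissue ear and the study's methods call it dorsal skin. Markers of skeletal muscle summed to 5142 ± 647 CPM (read counts scaled to a common library size; SD, n = 5) and markers of cartilage to 398 ± 185 CPM in the WT mice. Each mouse is a separate library with 29627341 to 30967119 assigned read pairs.

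Mitochondria keep a ribosome of their own, which makes the few proteins encoded by mitochondrial DNA, all of them subunits of the oxidative phosphorylation complexes. Its proteins are encoded in the nucleus, made on cytosolic ribosomes and imported, and are named Mrpl for the large and Mrps for the small subunit, although Mrps30 and Mrps18a sit in the large subunit. Many descend from the proteins of a bacterial ribosome and others are found only in mitochondria. Mrps36 carries a ribosomal name but is now placed in the 2-oxoglutarate dehydrogenase complex. SPT6, the product of Supt6, is a histone chaperone that travels with RNA polymerase II during transcription elongation.

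The targeted gene was read first. Supt6 (gene ID 20926, chr11:78206749-78245972 in mm10) stood at 74.5, 56.6, 63.6, 91.1 and 96.7 CPM in the WT mice. It stood at 28.6, 24.1, 21.9 and 28.4 CPM in the Supt6-KO mice. All 4 Supt6-KO mice lay below all 5 WT mice, at 33.7% of the WT mean, with a log2 fold change of -1.57 ± 0.18 (SE) and an adjusted p of 1.3e-05 by edgeR's quasi-likelihood test. The exact two-sided permutation test over mice gave p = 0.0159, the smallest value that 4 mice against 5 allow. With each library's trend on transcript length removed, the log2 fold change was -0.91. Over the 21 alternatives run it ranged from -2.26 to -0.875. The Supt6 counts cover the whole gene and do not separate the deleted exons from the rest.

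The mitochondrial ribosomal protein genes rose together in Supt6-KO skin. All 78 passed the filter on low counts, and none was near it, since the lowest value of any member in any mouse was 312 counts. With edgeR and adjustment over all 16428 genes tested, 76 of the 78 were higher and none was lower, against 34.1% of all genes higher and 36.8% lower. With an added requirement of at least a 2-fold change, 63 members were higher, against 20.9% of all genes, and none was lower, against 24.9%. In 76 members every Supt6-KO mouse lay above every WT mouse, against 28.9% of all genes, and no member showed the opposite order, against 31.8%. Over the 21 alternatives run, the count of members with every Supt6-KO mouse above every WT mouse ranged from 57 to 76. It was 76 with each mouse left out. The shares of all genes for this order in those settings are not given here. The median log2 fold change of the members was 1.42, that of all genes tested was -0.07, and the members ranged from -0.04 for Mrps31 to 2.46 for Mrpl33. The middle part of the members, from the lower to the upper quartile, lay between 1.08 and 1.83, and the standard error of a single member had a median of 0.155.

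**Figure D1:**
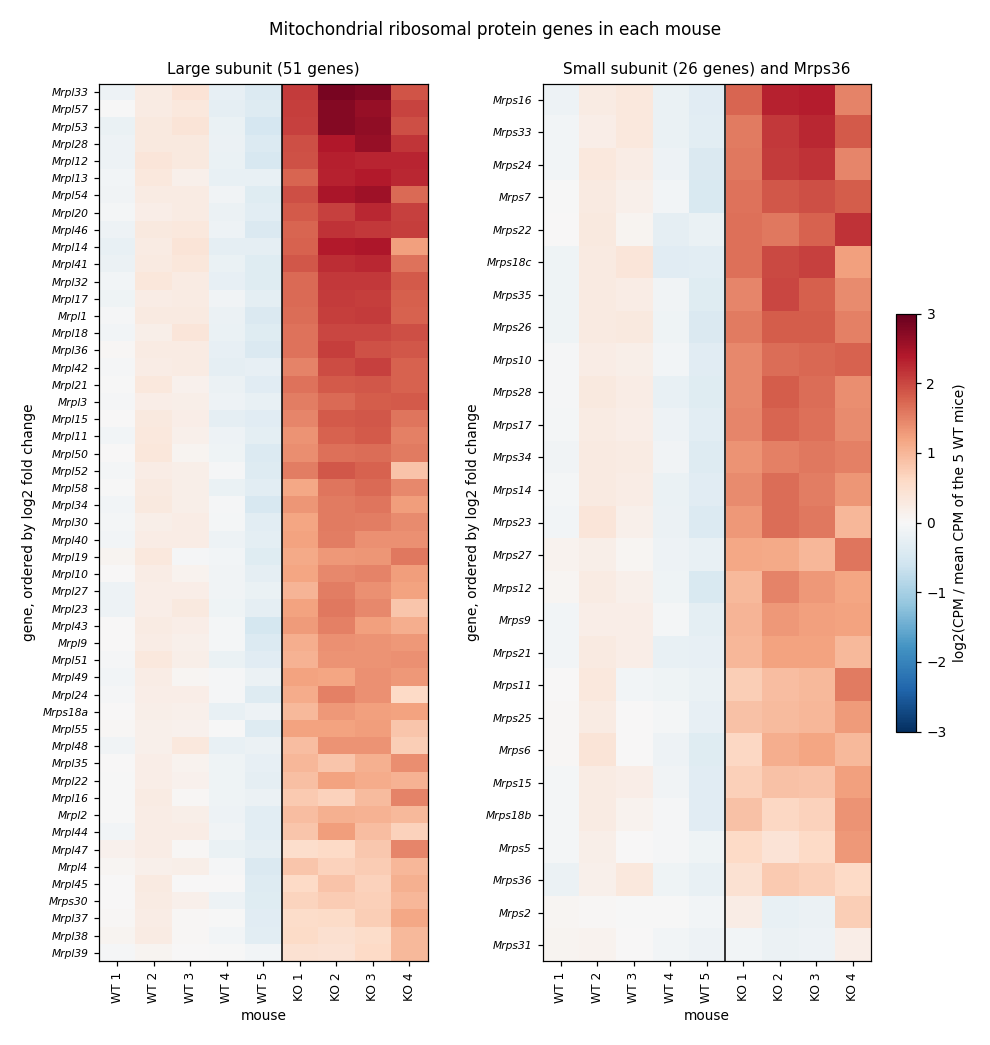
Each row is 1 of the 78 members and each column 1 mouse; the colour is log2 of the gene's CPM over its mean in the 5 WT mice, with genes ordered by fold change within the large subunit (51 genes, left) and the small subunit with Mrps36 (right). The Supt6-KO columns are red in nearly every row, and the palest rows at the bottom right are Mrps2 and Mrps31.

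Summed over the 78 genes, the WT mice had 2150 ± 347 CPM (SD, n = 5) and the Supt6-KO mice 6241 ± 685 CPM (n = 4), a ratio of 2.90. Summed over all genes tested, the same ratio was 1.64. These CPM values use TMM scaling factors, which were 1.20 to 1.31 in WT and 0.674 to 0.910 in Supt6-KO libraries, so the direction was also read from unscaled counts. Without any scaling the members took 0.259%, 0.305%, 0.299%, 0.242% and 0.225% of all counts in the WT mice. They took 0.423%, 0.458%, 0.481% and 0.541% in the Supt6-KO mice, and the groups again did not overlap. When library totals replaced the TMM factors, the median of all genes moved to -0.76 and that of the members to 0.72, and 58 members were called higher and 1, Mrps31, lower. Over all genes the calls moved from 5607 higher and 6050 lower with TMM to 2771 higher (16.9%) and 8970 lower (54.6%). The members lay 1.50 above the median gene on the log2 scale under TMM factors, and 1.48 above it when totals were used. A change of scaling moves all genes of a library by the same factor. The gap to the median gene could therefore hardly change, and it is no check on the scaling. The median over members of log2(CPM over the WT mean) was -0.05, 0.245, 0.189, -0.14 and -0.33 in WT mice 1 to 5 and 1.25, 1.56, 1.53 and 1.402 in Supt6-KO mice 1 to 4.

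Mitochondrial ribosomal protein genes are short, and gene length moved with the groups. The longest protein-coding transcript had a median of 1327.5 bases over the members and 3004 bases over all genes tested. Across all genes of a mouse, the slope of log2 CPM on log10 transcript length, relative to the mean of the 9 mice, was 0.661, 0.408, 0.534, 0.973 and 1.50 in the WT mice and -0.938, -1.20, -1.24 and -0.690 in the Supt6-KO mice. Among the 5 WT mice the order of this slope was the reverse of the order of the members' medians, whereas among the Supt6-KO mice it was not, since mouse 4 had the highest slope and a higher median than mouse 1. With each library's length trend removed by an offset, the median of the members was 0.92 and that of all genes -0.02. Under that offset 59 members were higher, against 33.6% of all genes, and 3 lower (Mrps21, Mrps31 and Mrps36), against 33.9%. With the transcript lengths implied by the deposited TPM values, an alternative chosen after seeing the data, the members' median was 0.82. With those lengths 60 members were higher, against 34.1% of all genes, and 4 lower (the same 3 and Mrpl52), against 34.5%. Within the members, the fold change had Pearson's r of -0.13 with log10 transcript length across 78 genes, against -0.30 across 16369 genes of the table; genes are not independent replicates. What part RNA length or integrity had in the members' rise was not tested.

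**Figure D2:**
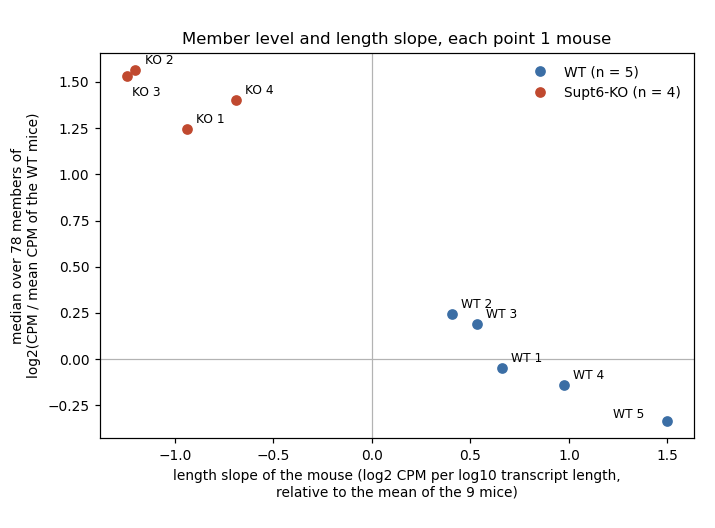
Each point is 1 mouse; the horizontal axis is the slope of log2 CPM on log10 transcript length over all genes, relative to the mean of the 9 mice, and the vertical axis the median over the 78 members of log2(CPM over the WT mean). The Supt6-KO mice lie at slopes of -1.24 to -0.690 with medians of 1.25 to 1.56, and the WT mice at slopes of 0.408 to 1.50 with medians of -0.33 to 0.245.

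The rise was seen in both subunits. All 51 genes of the large subunit were higher, 43 of them at least 2-fold, and their median log2 fold change was 1.43. Of the 26 genes of the small subunit 24 were higher, 20 of them at least 2-fold, with a median of 1.45. Of all genes 34.1% were higher, and 20.9% were higher by at least 2-fold. Genes with a bacterial counterpart were higher in 44 of 45 cases (median 1.49) and genes found only in mitochondria in 30 of 31 (median 1.38), again against 34.1%. The classes follow the uniform naming of ribosomal proteins, which counts Mrps18a and Mrps18b as mitochondrion-specific although they are paralogs of a bacterial-type protein. Mrpl55, of the large subunit, was not assigned to either class and had a log2 fold change of 1.13. Mrps36 was also in neither class. The highest median of these classes was 1.63, for the 29 bacterial-type genes of the large subunit. The lowest was 1.28, for its 21 mitochondrion-specific genes. With the transcript length offset the highest was 1.023, for the 10 mitochondrion-specific genes of the small subunit. The lowest with that offset was 0.698, for the small subunit's 16 bacterial-type genes. These differences were not tested. The members lie on 17 chromosomes, with the most, 11 genes, on chromosome 11.

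With TMM factors or library totals and no length offset, the 5 members with the largest fold changes all belong to the large subunit. With the transcript length offset the 5 largest were Mrpl17 (2.64), Mrpl57 (2.40), Mrpl1 (2.08), Mrps17 (2.01), of the small subunit, and Mrpl15 (2.00). Mrpl33 (gene ID 66845), a short protein of the large subunit, stood at 28.3, 37.1, 42.0, 26.6 and 23.8 CPM in the WT mice and at 135, 226, 216 and 116 in the Supt6-KO mice. Its log2 fold change was 2.46 ± 0.24 (SE, adjusted p = 4.6e-06), and its WT level was 332 TPM, the highest of the members in that unit; in CPM per kilobase of the longest transcript Mrps21 was higher, at 69.1 against 66.0. The fold change of Mrpl33 was smaller with the transcript length offset (1.01) and with implied lengths (0.78). Mrpl12 (gene ID 56282), which forms the flexible stalk that recruits translation factors and is also reported to bind the mitochondrial RNA polymerase, stood at 40.0, 57.4, 54.3, 38.8 and 31.8 CPM in WT and at 167, 225, 217 and 218 CPM in Supt6-KO mice. That is a log2 fold change of 2.22 ± 0.18 (adjusted p = 1.9e-06), and the groups did not overlap. Mrpl57, Mrpl53 and Mrpl28 had log2 fold changes of 2.41, 2.39 and 2.303. For Mrpl57 and Mrpl53 the gene span overlaps Ska3 and Ccdc142 respectively, and without a stated strand the reads of overlapping genes cannot be told apart.

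The promoters of the 2 members with the largest and the 2 with the smallest fold change, with TMM factors and no length offset, are shown. They were chosen as the extremes of a set that moved together. With the transcript length offset the largest were Mrpl17 (2.64) and Mrpl57 (2.40), and the smallest Mrps31 (-0.54) and Mrps36 (-0.47). The windows run from 250 bases before to 50 after the transcription start in RefSeq (GRCm38.p6, the build called mm10 in the study). Capitals mark exact matches, on either strand, to the 7 sets of letters searched, which were GCATGCGC for NRF1, CCGGAAG for ETS factors such as GABPA, AAGATGGC for YY1, CACGTG for an E-box, GGGGCGG for a GC box, CCAAT for a CCAAT box and TATAAA for a TATA box.
Mrpl33, chr5:31613701-31614000, plus strand: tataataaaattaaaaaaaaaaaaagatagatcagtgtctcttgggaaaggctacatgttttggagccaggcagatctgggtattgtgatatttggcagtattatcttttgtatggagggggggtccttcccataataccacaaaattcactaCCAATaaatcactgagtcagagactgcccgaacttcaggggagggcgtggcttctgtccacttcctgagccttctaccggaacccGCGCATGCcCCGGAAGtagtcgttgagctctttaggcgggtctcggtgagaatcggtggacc
Mrpl57, chr14:57825989-57826288, plus strand: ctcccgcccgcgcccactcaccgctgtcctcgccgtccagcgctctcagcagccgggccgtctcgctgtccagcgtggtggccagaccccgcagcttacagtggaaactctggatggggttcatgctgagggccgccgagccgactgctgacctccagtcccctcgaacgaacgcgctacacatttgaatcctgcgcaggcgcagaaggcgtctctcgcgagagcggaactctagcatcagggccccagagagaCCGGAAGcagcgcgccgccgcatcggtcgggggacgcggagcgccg
Mrps31, chr8:22411090-22411389, plus strand: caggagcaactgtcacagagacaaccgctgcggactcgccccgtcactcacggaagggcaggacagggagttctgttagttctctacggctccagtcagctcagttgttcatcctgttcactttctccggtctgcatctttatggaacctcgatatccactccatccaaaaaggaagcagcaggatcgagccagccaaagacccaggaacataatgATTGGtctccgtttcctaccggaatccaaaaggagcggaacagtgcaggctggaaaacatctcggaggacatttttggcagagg
Mrps2, chr2:28467816-28468115, plus strand: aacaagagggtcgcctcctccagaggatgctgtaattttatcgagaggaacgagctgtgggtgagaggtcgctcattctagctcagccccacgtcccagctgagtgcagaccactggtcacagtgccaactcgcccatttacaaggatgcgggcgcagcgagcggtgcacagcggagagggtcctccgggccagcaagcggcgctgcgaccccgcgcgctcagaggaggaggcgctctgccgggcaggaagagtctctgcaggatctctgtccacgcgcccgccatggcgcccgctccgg
With 1 as the start and -1 as the base before it, the Mrpl33 window holds a CCAAT box at -97, an NRF1 match on the reverse strand at -12 and an ETS match at -3. The Mrpl57 window holds an ETS match at 5, the Mrps31 window a CCAAT box on the reverse strand at -34, and the Mrps2 window none of the letters. Windows were found for 69 of the 78 members (75 windows, because some genes have more than 1 start). The windows they are compared with belong to 27025 genes, more than the 16428 tested, and were not limited to genes expressed in skin. What part this had in the motif shares was not tested. ETS letters were in 34.7% of member windows and 8.86% of all 32851 windows, NRF1 letters in 10.7% against 2.71%, YY1 letters in 16.0% against 2.75%, and GC boxes in 37.3% against 23.2%. CCAAT boxes were in 40.0% against 37.4%, E-boxes in 9.33% against 7.15%, and TATA boxes in 6.67% against 13.6%. The 7 windows with an E-box came from 5 of the 69 genes, since Mrpl2 has 3 overlapping windows, so that gene is counted 3 times in the share of windows. Member windows also had a higher GC content, with a median of 58.7% against 52.7% and a median of 21 CG pairs against 7; the part of this composition in the motif shares was not tested. Matches of the NRF1 letters on opposite strands can overlap and are then 1 stretch. The median log2 fold change was 1.53 for the 26 members with ETS letters and 1.28 for the 43 without; for the 8 with NRF1 letters and the 61 without, the medians were 1.31 and 1.42. The medians with and without a CCAAT box were 1.63 and 1.29, with and without an E-box 1.76 and 1.36, with and without YY1 letters 1.26 and 1.42, with and without a GC box 1.29 and 1.43, and with and without a TATA box 1.58 and 1.36. A match is a stretch of letters and does not show that a factor binds.

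Named members of the large subunit had the following values. Mrpl3 and Mrpl11, conserved core proteins of the large subunit, had log2 fold changes of 1.73 and 1.63. Mrpl3 stood at 42.3, 49.6, 48.9, 39.4 and 37.5 CPM in the WT mice and at 126, 142, 152 and 157 CPM in the Supt6-KO mice. Mrpl58, a peptidyl-tRNA hydrolase built into the large subunit, had a log2 fold change of 1.50, and Mrpl44 and Mrpl45, which belong to the large subunit's mitochondrion-specific part, of 0.94 and 0.82. Mrpl20 and Mrpl42, with Mrpl33 the large-subunit members with the most CPM per kilobase in WT skin, had log2 fold changes of 2.06 and 1.83. Mrps30, a mitochondrion-specific protein of the large subunit despite its name, stood at 26.5, 31.5, 29.5, 23.9 and 20.6 CPM in WT and 41.7, 44.8, 43.3 and 52.7 CPM in Supt6-KO mice, a log2 fold change of 0.79 ± 0.14 (adjusted p = 3.6e-04). With library totals Mrpl44, Mrpl45 and Mrps30 kept their direction (0.23, 0.14 and 0.11) and no longer passed the test.

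In the small subunit, Mrps7, a conserved protein of the head that binds ribosomal RNA, stood at 46.0, 55.8, 51.5, 43.4 and 33.7 CPM in the WT mice. It stood at 144, 167, 175 and 163 CPM in the Supt6-KO mice, a log2 fold change of 1.81 ± 0.15 (adjusted p = 1.7e-06). Mrps12, the counterpart of the bacterial decoding-centre protein S12, had a log2 fold change of 1.25, and Mrps22, Mrps34, Mrps23 and Mrps27, mitochondrion-specific proteins, of 1.81, 1.49, 1.42 and 1.25. Mrps21 (321 TPM in WT) had 1.10 ± 0.14 (adjusted p = 2.4e-05), and under the transcript length offset its sign turned to -0.31 (adjusted p = 0.030). Mammals have 3 paralogs of the bacterial protein S18, of which Mrps18a sits in the large subunit and Mrps18b and Mrps18c in the small. Mrps18c stood at 23.7, 31.3, 33.4, 20.5 and 20.8 CPM in WT and at 81.4, 102, 108 and 61.0 CPM in Supt6-KO mice, a log2 fold change of 1.76 ± 0.20. Mrps18a and Mrps18b had log2 fold changes of 1.18 ± 0.12 and 0.91 ± 0.17, and in all 3 paralogs the groups did not overlap. Mrps18a no longer passed the test under the transcript length offset (0.246), and Mrps18c no longer did with implied lengths (0.207). Mrps18b lost its call with library totals (0.259), the transcript length offset (0.164) and implied lengths (0.334), and Mrps12 lost it with implied lengths (0.221). With the block and length offset Mrps12, Mrps18a and Mrps18b were not called.

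Mrps31 and Mrps2 were the 2 members that did not pass the test. Mrps31 (gene ID 57312), a mitochondrion-specific protein of the small subunit, stood at 17.7, 18.2, 17.0, 16.0 and 15.2 CPM in the WT mice and at 15.8, 15.0, 15.2 and 19.4 CPM in the Supt6-KO mice. The groups overlapped, with a log2 fold change of -0.04 ± 0.13 (adjusted p = 0.79). It was called lower with library totals (-0.71, adjusted p = 0.0034), the transcript length offset (-0.54, adjusted p = 0.0032) and implied lengths (-0.41, adjusted p = 0.014). Mrps2 (gene ID 118451), the counterpart of bacterial S2, stood at 23.7, 23.4, 22.6, 22.7 and 21.7 CPM in WT mice and at 26.7, 19.4, 20.4 and 37.8 CPM in Supt6-KO mice. Its WT mice lay close together, from 21.7 to 23.7 CPM, while the Supt6-KO mice fell on both sides of them, and the log2 fold change was 0.19 ± 0.18 (adjusted p = 0.36). Without Supt6-KO mouse 4 it was -0.05. The next lowest were Mrpl39, Mrps36 and Mrpl38, with log2 fold changes of 0.63, 0.65 and 0.66. Each was past the threshold with TMM and slightly below 0 with library totals (-0.04, -0.05 and -0.01). Mrpl38 was also not called with the transcript length offset (0.108), that offset with the block, or implied lengths (0.247). For Mrps36, whose product is not a ribosomal subunit, the WT mice had 17.4, 21.6, 24.3, 17.8 and 16.6 CPM and the Supt6-KO mice 26.6, 33.9, 32.1 and 29.7 CPM, with the log2 fold change turning to -0.47 under the transcript length offset.

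**Figure D3:**
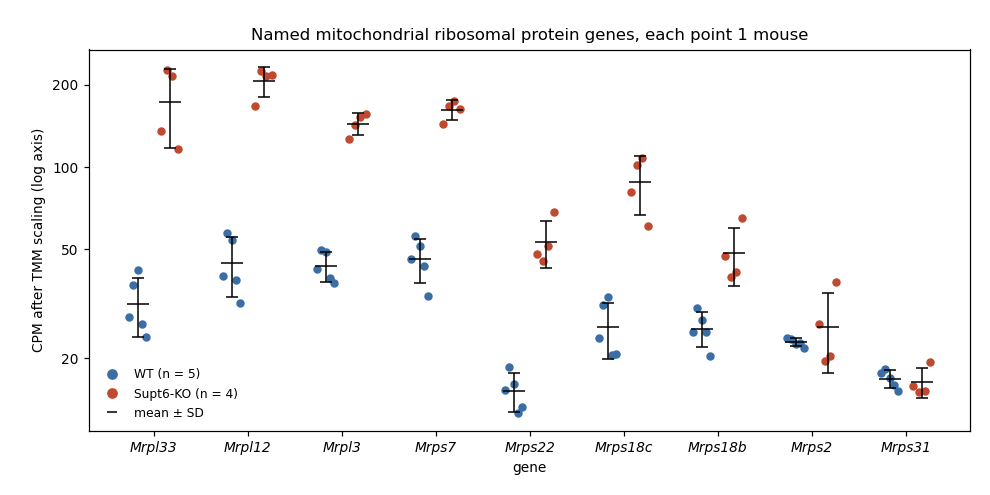
CPM after TMM scaling (log axis) of 9 named members, with 1 point per mouse and bars for the mean and SD of the 5 WT (blue) and 4 Supt6-KO (red) mice. The groups are apart in 7 of the 9 genes and overlap in Mrps2 and Mrps31.

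Proteins that belong to the mitochondrial ribosome under other names moved in the same direction. All 5 were higher, with log2 fold changes of 2.16 for Chchd1, 1.60 for Aurkaip1, 1.58 for Gadd45gip1, 1.34 for Ptcd3 and 0.28 for Dap3. Dap3, a GTP-binding protein of the small subunit, was lower instead with library totals (-0.40), and its call (adjusted p = 0.034) was lost with upper-quartile factors, the filter of 10 counts in every mouse, the replicate block and most single mice left out. Of 27 factors that build the ribosome 20 were higher and 1 lower (median 0.66), against 34.1% and 36.8% of all genes. Among them Malsu1 (1.86), which keeps the subunits apart during assembly, and Tfb1m (1.64), an rRNA methyltransferase, rose, and the RNA helicase Dhx30 fell by 0.99 on the log2 scale. Of 16 translation factors 11 were higher and 1 lower, with Slirp, an RNA-binding partner of Lrpprc, at 2.04 (0.184 with implied lengths, not past the threshold) and the recycling factor Mrrf at 1.32. Tufm, the elongation factor that delivers aminoacyl-tRNA, stood at 65.0, 67.6, 58.3, 67.3 and 57.8 CPM in WT and at 61.9, 47.6, 55.0 and 104 CPM in Supt6-KO mice, so that only mouse 4 lay above the WT mice, and did not pass the test (0.09 ± 0.20, adjusted p = 0.71). Oxa1l, the insertase that receives the newly made proteins at the inner membrane, fell by 0.78. Of the mitochondrial tRNA synthetases and related enzymes 13 of 20 were higher, led by Yars2 (1.53) and Mars2 (1.39), and Aars2 and Vars2 were lower. In all, 49 of 68 of these other genes were higher and 4 lower with a median of 0.77, against 34.1% and 36.8% of all genes, and with library totals 21 were higher and 16 lower, against 16.9% and 54.6%.

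Genes that copy and transcribe mitochondrial DNA were called in both directions. Of 20, 13 were higher and 2 lower (median 0.67), against 34.1% and 36.8% of all genes, and with library totals 6 were higher and 6 lower, against 16.9% and 54.6%. Tefm, the mitochondrial elongation factor, and Ssbp1, the single-strand binding protein, had log2 fold changes of 1.87 and 1.86, and Tfam, which packages the DNA, of 0.78 (0.078 with library totals, not past the threshold). Polrmt, the mitochondrial RNA polymerase, stood at 17.2, 15.1, 12.0, 16.6 and 14.9 CPM in WT and at 7.06, 4.65, 5.44 and 9.45 CPM in Supt6-KO mice, all below the WT mice, a log2 fold change of -1.18 ± 0.21 (adjusted p = 3.7e-04). The DNA polymerase gene Polg fell by 0.66. Genes encoded in mitochondrial DNA itself were not analysed here. Of 23 genes of the import machinery 21 were higher and 1 lower (median 1.59), against 34.1% and 36.8% of all genes. Tomm5 stood at 3.05, Timm8b at 2.76 and Tomm34 at -1.01. With library totals 18 import genes were higher and 2 lower, against 16.9% and 54.6%. Among 10 markers of mitochondrial content 4 were higher and 2 lower, against 34.1% and 36.8% of all genes, with the chaperonin Hspe1 at 2.95 and Phb2 at 1.45, while citrate synthase (Cs) fell by 0.62. The counts were 2 higher and 4 lower with library totals, against 16.9% and 54.6% of all genes, and 4 higher and 5 lower without Supt6-KO mouse 4. The list's median went from 0.32 to -0.31 and -0.07 respectively. Cs stood between 363 and 408 CPM in the WT mice and between 230.1 and 271 CPM in the Supt6-KO mice.

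Of 10 genes known as regulators of mitochondrial biogenesis 3 were higher and 5 lower (median -0.15), and with library totals 1 was higher and 6 lower. Both counts are close to the shares over all genes (34.1% higher and 36.8% lower, and 16.9% and 54.6% with library totals), so they are no result about the list. Ppargc1a, the coactivator PGC-1 alpha, stood at 9.90, 5.78, 4.13, 4.14 and 4.58 CPM in WT and at 0.919, 0.624, 1.05 and 1.33 CPM in Supt6-KO mice, a log2 fold change of -2.52 ± 0.34 (adjusted p = 4.3e-05). Its relatives Ppargc1b and Pprc1 fell by 0.94 and 1.11, Mycn by 3.13 and Myc by 0.46. Esrra, a nuclear receptor that acts with PGC-1 alpha, rose by 1.37, Gabpb1 by 0.97 and Yy1 by 0.49. The transcripts of Nrf1 and Gabpa, which encode the factors behind the NRF1 and ETS letters above, had log2 fold changes of 0.16 (adjusted p = 0.38) and 0.21 (adjusted p = 0.15) and did not pass the test. With library totals both lay below 0 and Gabpa passed the test as lower (-0.46, adjusted p = 0.042), while Gabpa passed as higher under the transcript length offset (0.64) and Nrf1 under the gene span offset (0.57).

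Compared with other large complexes of short, abundant proteins, the mitochondrial ribosome was not alone in rising. Of 82 cytosolic ribosomal protein genes 81 were higher and 1 lower (Rpl3l, at -1.66), with a median of 1.89 and Rpl41 (3.36) and Rpl34 (2.92) in front. Of 85 nuclear genes of oxidative phosphorylation 74 were higher and 3 lower (median 1.49), with Ndufa4 at 2.76 and Atp5mpl at 2.62, while Sdha, the catalytic subunit of complex II, Cox6a2 and Cox4i2 were lower. Of 38 proteasome genes 34 were higher and none lower (median 1.14), with Psma7 at 2.52 and Psmd14 at 2.00. With TMM factors the summed CPM rose 3.73-fold for cytosolic ribosomal proteins, 2.64-fold for oxidative phosphorylation and 2.33-fold for the proteasome. It rose 2.90-fold for the mitochondrial ribosomal proteins and 1.64-fold for all genes tested. With library totals the median log2 fold changes of these 3 lists were 1.145, 0.781 and 0.448. The members then had 0.716 and all genes tested -0.759. With the transcript length offset the medians were 0.977, 0.565 and 0.639 for these 3 lists and 0.92 for the members. With implied lengths 44 of the 85 oxidative phosphorylation genes were higher and 12 lower (median 0.354). All of these counts stand beside 34.1% of all genes higher and 36.8% lower, shares that were 34.1% and 34.5% with implied lengths. Differences between these lists were not tested.

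**Figure D4:**
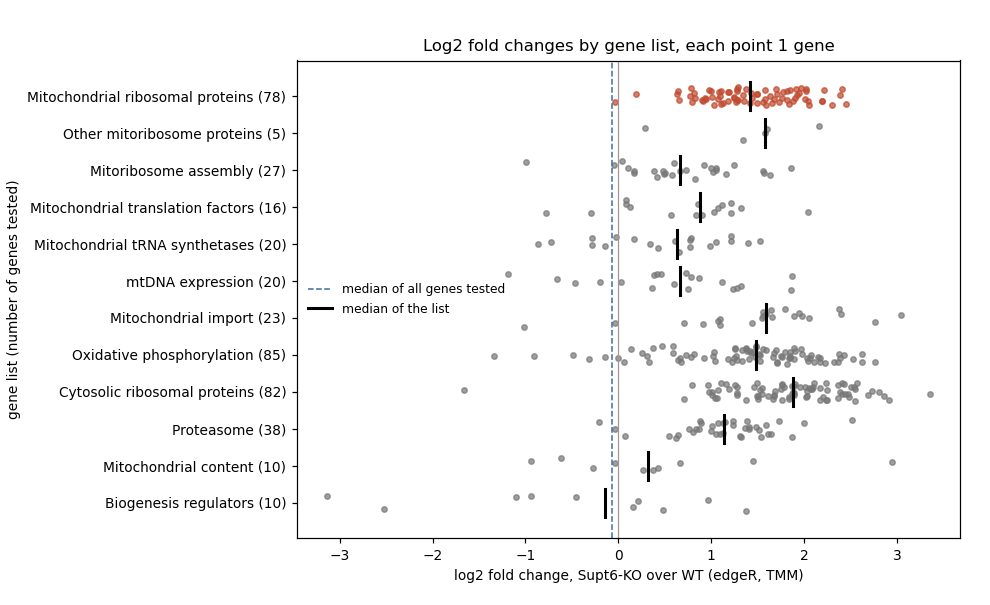
Log2 fold change of Supt6-KO over WT skin for each gene of 12 lists, with 1 point per gene, a black bar at the median of each list and a dashed line at the median of all genes tested (-0.07). The members (red) lie from -0.04 to 2.46, and the lists of ribosomal, import, respiratory and proteasome genes lie mostly to the right of the line.

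Marker transcripts of several cell types also differed between the groups. In whole skin, fewer cells of a type and less RNA per cell cannot be told apart. Markers of skeletal muscle, a tissue rich in mitochondria, were lower in 7 of 8 genes, and their summed CPM, led by Acta1, fell to 1194 ± 236 in Supt6-KO mice. All 6 cartilage markers tested and all 5 sebaceous gland markers were lower, as were 5 of 6 adipocyte, 5 of 6 hair follicle, 4 of 7 fibroblast, 4 of 6 T cell and 4 of 5 endothelial markers, against 36.8% of all genes. The hair follicle markers summed to 1774, 146, 589, 366 and 4.71 CPM in the WT mice and to 15.3, 47.0, 63.2 and 73.4 CPM in the Supt6-KO mice, so that WT mouse 5 lay below every Supt6-KO mouse. Neutrophil markers were higher in 5 of 6 genes, led by Retnlg, against 34.1% of all genes, while Mpo was lower. The neutrophil markers summed to 7.17 ± 1.86 CPM in WT and 46.4 ± 25.2 CPM in Supt6-KO mice. Of the macrophage markers 5 of 6 were higher, against 34.1% of all genes, and Csf1r was lower. With library totals 2 macrophage markers were higher and 1 lower, against 16.9% and 54.6% of all genes. The transcript length offset gave the same counts, against 33.6% and 33.9% of all genes. All 5 melanocyte markers were higher, against 34.1% of all genes, and 3 of them with library totals, against 16.9%. Of 8 keratinocyte markers 1 was higher and 4 lower, against 34.1% and 36.8% of all genes. Krt10 was the most abundant, at a log2 fold change of 0.19 and not past the threshold. Of 7 genes of cell proliferation 5 were higher, against 34.1% of all genes, and Mki67 and Top2a did not pass the test. All 7 were higher with the transcript length offset, with that offset and the block, and with implied lengths. The shares of all genes in those settings were 33.6%, 31.1% and 34.1%. The 7 genes summed to 115 ± 28.0 CPM in WT mice, with a highest value of 159.8 CPM. In the Supt6-KO mice the sums were 157, 168, 281 and 742 CPM, so that mouse 1 lay within the WT range and mouse 4 far above the others. Matn1, of the cartilage list, had no more than 3 counts in any mouse. The part that cell composition had in the members' levels was not tested.

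The count of members called did not depend on any single mouse. WT mouse 5 had the lowest value of the WT group in 72 of 78 members and WT mouse 2 the highest in 52. Among the Supt6-KO mice, mouse 1 was the lowest in 42 and mouse 4 in 24. WT mouse 5 and Supt6-KO mouse 4 stood apart from their groups on the second principal component, which held 8.13% of the variance. Leaving out each mouse in turn, 76 members were called higher every time, with medians of 1.34 to 1.50, and without both of those mice 76 were again higher, with a median of 1.39.

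**Figure D5:**
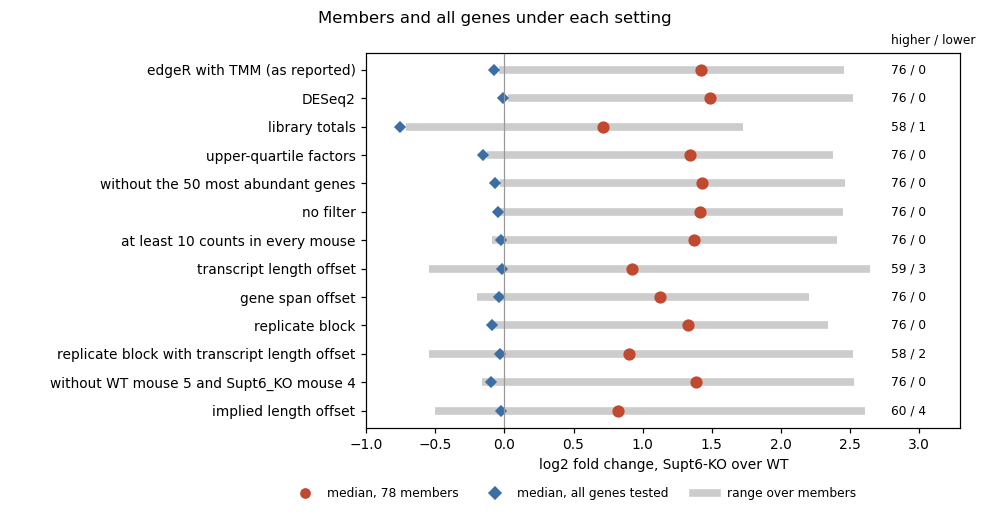
For each setting that kept all mice, and for the one without WT mouse 5 and Supt6-KO mouse 4, the red point is the median log2 fold change of the 78 members, the grey bar their range, the blue diamond the median of all genes tested, and the figures at the right the number of members called higher and lower. Among the settings drawn the members' median runs from 0.72 with library totals to 1.49 with DESeq2, and 58 to 76 members are called higher.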

How the data were processed

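RNA from the skin of 9 mice was sequenced as paired-end libraries. Per the labels and the study's methods, alignment to mm10 was done by the authors in Bowtie2 2.3.4.3, and they deposited expected counts per gene from RSEM 1.3.1, not normalized between samples, beside TPM values, which scale for transcript length and sequencing depth. The study's methods used DESeq2 for differential expression (1.4.5 in the submitters' processing notes, which also name HISAT without a role). TPM was used only for levels and implied lengths. The table held TPM for the 5 WT mice and 1 Supt6-KO mouse. Of the expected counts 9.00% were not whole and were rounded. Of 17943 gene IDs, 17910 matched RefSeq. Genes with a sum under 10 counts were left out, and 16428 were tested with edgeR 4.0.16 in R 4.3.3 (quasi-likelihood test, TMM, Benjamini-Hochberg adjustment over all genes, 5 WT against 4 Supt6-KO mice, threshold 0.05). Fold changes are fitted log2 values. Other scalings and filters, length offsets, DESeq2 1.42.0, a replicate block and the omission of mice were also run. The gene members and lists were chosen with earlier results of these data known. Named members were the 5 largest and 5 smallest fold changes, the 3 highest per length of each subunit, and a set fixed for its place in the ribosome. In the related lists they were the 2 largest changes of each and a fixed set, and other related genes were named after their values were seen. Of the members, 10 had fractional counts in some mouse and 20 had spans that overlap another gene, and RefSeq lists 6 pseudogenes named for members, so reads may be shared. The labels do not say how the mice of a group relate, so p-values measure the spread between these samples. The value of 1 gene in a related list is not reported here.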

Additional observations from a re-analysis of the deposited data

Results flagged for a closer look

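Among 198 groups of 4 or 5 mice examined, 4 held 1 mouse far from the rest, fewer than the 9.9 that chance gives at 1 in 20. Mrpl12 was low in Supt6-KO mouse 1, at 167 CPM against a group median of 217. Mrpl38 was high in Supt6-KO mouse 4, at 48.8 CPM against 36.4. Ppargc1a was high in WT mouse 1, at 9.90 CPM against 4.58, and so was Mycn, at 2.43 CPM against 1.04.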

How the results depend on the processing

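The 76 higher and 0 lower calls among the 78 members were also the counts with DESeq2, upper-quartile factors, TMM without the 50 most abundant genes, both other filters, the gene span offset, the replicate block, each mouse left out and WT mouse 5 and Supt6-KO mouse 4 left out together. A test against a 2-fold change called 48 members higher, and the share of all genes called by that test is not given here. Lower calls among members were 1 with library totals (54.6% of all genes) and 3 with the transcript length offset (33.9% of all genes). They were 2 with that offset and the block (32.0% of all genes) and 4 with implied lengths (34.5% of all genes). The members' median was 0.716 with library totals, 0.924 with the transcript length offset, 1.125 with the gene span offset, 0.90 with the block and length offset, and 0.824 with implied lengths, and 1.34 to 1.50 with each mouse left out. Both length offsets remove any trend with length, whatever its source. The main fit did not treat mice of the same number as pairs. Same-numbered mice had deviations correlated at -0.009 to 0.158 (4 pairs, mean 0.079). Mice of different numbers had deviations correlated at -0.178 to 0.178 (16 pairs, mean -0.016). Of the 4 Supt6-KO mice 1 correlated best with its own number. So few pairs cannot settle whether the numbers pair the samples. With the block the members' median was 1.332.

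Log2 fold changes of named genes that turned sign were as follows; the cause was not tested. Of the members not named by rule, Mrpl22 turned to -0.018 with the transcript length offset and Mrpl52 to -0.408 with implied lengths, and none turned with library totals. With library totals they were Mrps2 -0.455, Mrpl39 -0.038, Mrps36 -0.052, Mrpl38 -0.010, Dap3 -0.396, Tufm -0.555, Nrf1 -0.497 and Gabpa -0.459. With the transcript length offset they were Mrps2 -0.059, Mrps36 -0.474, Mrps21 -0.306 and Tufm -0.295, and with the block added Mrps2 -0.113, Mrps36 -0.420, Mrps21 -0.228 and Tufm -0.368. With implied lengths they were Mrps36 -0.422, Mrps21 -0.504 and Tufm -0.196, and with the gene span offset Mrps2 -0.201 and Tufm -0.418. Mrps31 was 0.025 with DESeq2, and Tufm -0.004 with upper-quartile factors and -0.009 with the block. Without WT mouse 5 and Supt6-KO mouse 4 the values were Mrps2 -0.059, Tufm -0.235 and Nrf1 -0.030. With each mouse left out, Mrps2 ranged from -0.047 to 0.296, Tufm from -0.209 to 0.205 and Nrf1 from -0.016 to 0.247, each lowest without Supt6-KO mouse 4. Of 28 named members 15, and of 31 named related genes 25, kept their direction and their side of the threshold throughout.

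Other genes of mitochondrial translation had 21 higher and 16 lower calls with library totals, 7 lower with the transcript length offset, 8 lower without WT mouse 5 and Supt6-KO mouse 4, and 4 to 8 lower with each mouse left out. Cytosolic ribosomal proteins had 3 lower with the transcript length offset and 7 with implied lengths. Oxidative phosphorylation had 44 higher and 12 lower with implied lengths, and 9, 7, 5 and 6 lower with library totals, transcript length, gene span, and block with length. The proteasome had 22 higher and 3 lower with library totals, 1 lower with the block and length offset and without both mice, and 0 to 2 lower with each mouse left out.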
